A study of Homo sapiens with 6 samples.

Results

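The VEGF family comprises secreted growth factors and the receptors through which they act. Expression of its 8 members listed here was measured in MH7A cells: the ligand genes VEGFA, VEGFB, VEGFC and PGF, the receptor tyrosine kinase genes FLT1 and KDR, and the co-receptor genes NRP1 and NRP2. They were taken by gene symbol from a deposited table of 19475 genes, and all 8 were found and passed the filter on low counts, as did 13794 genes in all. MH7A is a line of synovial fibroblasts from rheumatoid arthritis, immortalised with a viral large T antigen, and it is a single line grown without the endothelial cells of a joint. In the TNF + LED group (n = 3, replicates 4, 6 and 10) the cells were given TNFα at 10 ng/ml and red light of 630 nm from an LED, for 15 min on 3 occasions. The TNF group (n = 3, replicates 2, 8 and 14) was given TNFα at 10 ng/ml and no light. TNFα, the cytokine used to mimic joint inflammation, was thus present in every library, and no library had light alone. By GENCODE 29, VEGFA lies on chromosome 6, VEGFB on 11, VEGFC and KDR on 4, PGF on 14, FLT1 on 13, NRP1 on 10 and NRP2 on 2. The comparison addresses how cells given light under TNFα differed from cells given TNFα alone. The group labels do not say whether the TNF cells were handled or warmed in the same way. Any part of handling or warming was not tested, and "with light" and "without" below name the groups.

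VEGF ligands are dimeric proteins that drive the growth and permeability of blood and lymph vessels. VEGFA signals mainly through KDR, PGF and VEGFB bind FLT1, and mature VEGFC acts on FLT4 and also on KDR, while the neuropilins NRP1 and NRP2 bind several of these ligands beside class 3 semaphorins. FLT1 binds VEGFA tightly with weak kinase activity, and its secreted form acts as a decoy. In the rheumatoid synovium, fibroblasts are a known source of VEGFA, and new vessels feed the inflamed lining. Gene-level counts do not separate splice forms, so the soluble form of FLT1 and the VEGFA isoforms were not distinguished.

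Library totals lay between 86000253 and 108074289 estimated counts, and 1 sequenced fragment was worth about 4 of these units. Values of 12 units or less (3 fragments, 0.108 to 0.138 CPM, the depth-scaled count on TMM library sizes) were therefore at the limit that a count of 0 allows. TNF + LED replicate 6 and TNF replicate 8 stood apart within their groups. Their Spearman correlations with the other libraries of the group were 0.985 and 0.981 for TNF + LED replicate 6 and 0.969 and 0.976 for TNF replicate 8, against 0.993 for the remaining pair of each group. Heat shock genes took 3.45% to 6.42% of the counts in TNF + LED libraries and 1.11% to 1.31% in TNF libraries. The cells expressed fibroblast genes at high levels, such as the collagen gene COL1A1 (8705 to 10778 CPM in TNF + LED libraries and 11776 to 14262 CPM in TNF libraries), whereas the lining marker PRG4 stayed under the 12-unit limit in every library. Of 14 fibroblast markers 13 were tested and none was called (1 lower at an unadjusted p below 0.05, and none by DESeq2 or limma-voom), and 1 was called by edgeR without TNF + LED replicate 6 and TNF replicate 8. The lowest p values among them were those of COL1A1 (edgeR adjusted p = 0.200) and DCN, a small proteoglycan, at 827 CPM with light and 1062 CPM without (0.282).

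Cells given TNFα and light had more PGF and VEGFA transcript and less VEGFC transcript than cells given TNFα alone. PGF was 13.1-fold higher and VEGFA 2.32-fold higher, and VEGFC was 2.13-fold lower. VEGFB and the 4 receptor and co-receptor genes did not pass the test. Thus 2 of 8 members rose, 1 fell and 5 were not called at an adjusted p below 0.05 (edgeR quasi-likelihood test, Benjamini-Hochberg adjustment over all genes tested). Of all 13794 genes tested, 5.17% were called, 2.44% as higher and 2.73% as lower. At least 2924 of them, the rank of NRP2, had an edgeR unadjusted p below 0.05. DESeq2 called 1753 of the 13794. Without TNF + LED replicate 6 and TNF replicate 8, edgeR called 1669 of 13860 genes tested. Counts of genes called in the lists are to be read beside these counts over all genes. The median log2 fold change was -0.32 over the 8 members and 0.01 over all genes tested. For 5 of the 8 members the ranges of both groups were separate, against 32.4% of all genes tested. VEGFA, PGF and VEGFC are among these 5, and the family was chosen with their moves known. The counts of members called or separate are therefore descriptions, and their contrast with all genes tests nothing. The labels do not say that the libraries came from separate cultures, so the p-values reflect only how far these samples spread, and that spread may be technical. In RNA from whole cultures, a change in the share of cells that express a gene and a change in RNA per cell cannot be told apart.

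**Figure D1:**
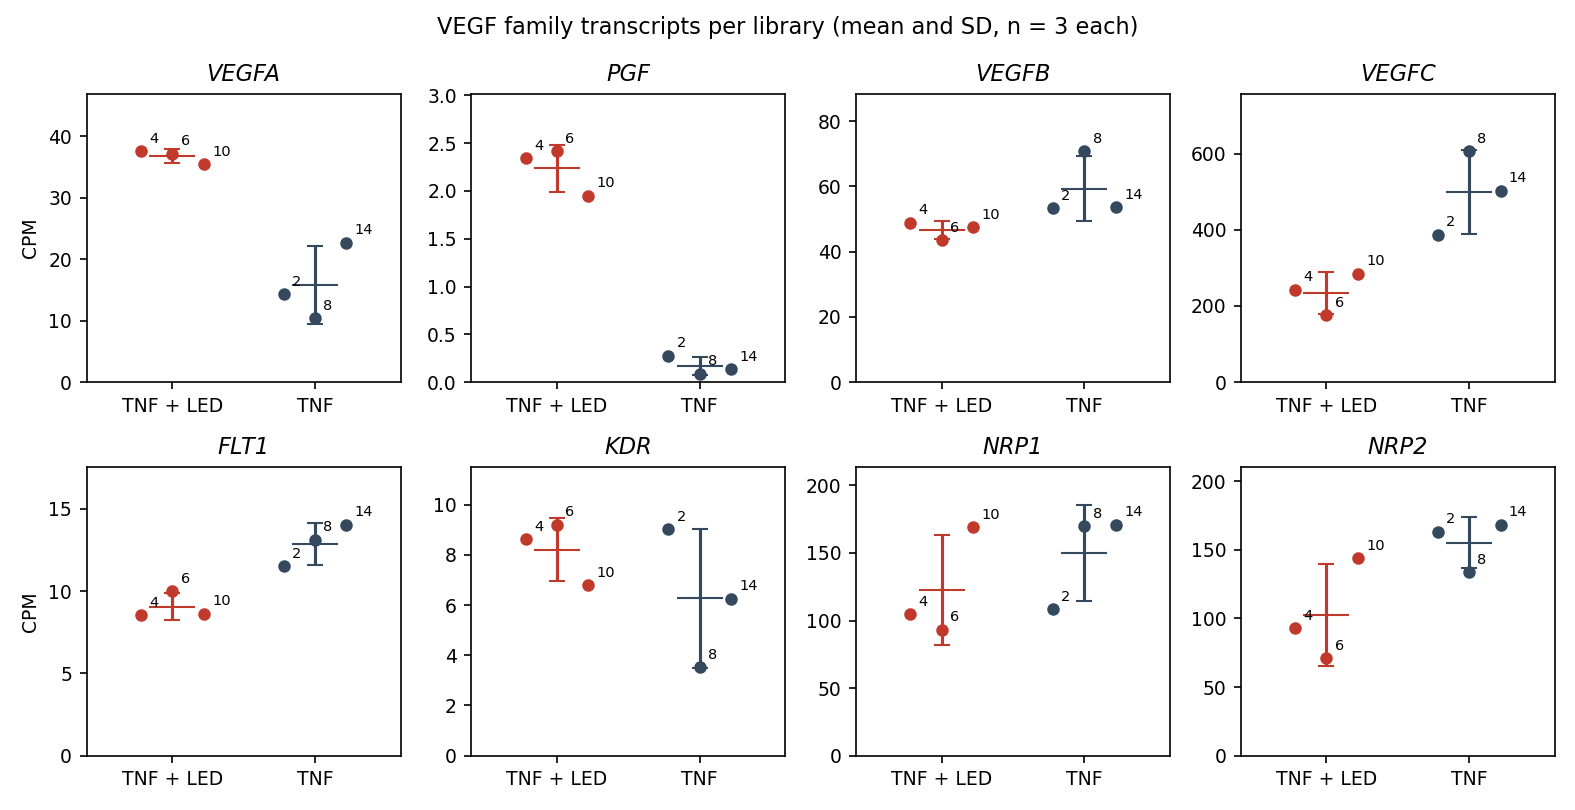
Transcript levels of the 8 VEGF family members in each library, in CPM on linear axes that start at 0, with replicate numbers beside the points, TNF + LED in red and TNF in dark blue. Horizontal marks and error bars give the mean and SD (n = 3 each). PGF and VEGFA were higher and VEGFC lower in all 3 TNF + LED libraries than in any TNF library, whereas the groups overlapped for KDR, NRP1 and NRP2.

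PGF encodes placental growth factor, a ligand of FLT1 that is scarce in most healthy adult tissues. Its transcript was at 2.34, 2.41 and 1.95 CPM in TNF + LED replicates 4, 6 and 10, and at 0.278, 0.0886 and 0.138 CPM in TNF replicates 2, 8 and 14. All 3 TNF + LED libraries lay well above every TNF library, and 2 of the TNF libraries (replicates 8 and 14, with 9 and 12 units) were at or under the limit that a count of 0 allows. The log2 fold change was 3.71 ± 0.48 (SE, 95% interval 2.63 to 4.79, edgeR adjusted p = 0.00674), the 49th lowest p among the genes tested. Pooled over libraries, about 170 fragments in the TNF + LED group stood against about 13 in the TNF group, a rate ratio of 12.9 with an exact 95% interval of 7.37 to 24.8 that covers counting error only. Without TNF + LED replicate 6 the call was lost (log2 fold change 3.65, edgeR adjusted p = 0.0503), and it was kept in the other 5 single omissions.

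VEGFA encodes the main angiogenic ligand, a classical target of hypoxia and of many stress pathways. Its exons, like those of NRP1 and NRP2, overlap an antisense gene (188 of 3768 exon bases for VEGFA). Whether reads of that gene were told apart is not known, because the strand setting is not given. VEGFA had 37.5, 37.2 and 35.4 CPM in TNF + LED replicates 4, 6 and 10, and 14.3, 10.4 and 22.7 CPM in TNF replicates 2, 8 and 14. The TNF + LED libraries were close to each other, whereas the highest TNF library had more than double the level of the lowest. Means were 36.7 ± 1.12 CPM with light and 15.8 ± 6.29 CPM without (SD, n = 3 each), and the log2 fold change was 1.22 ± 0.27 (SE, edgeR adjusted p = 0.0364). In single omissions the call was lost without TNF + LED replicate 4 (edgeR adjusted p = 0.112), 6 (0.143) or 10 (0.0758) and without TNF replicate 2 (0.0712) or 8 (0.0506). Its log2 fold change stayed between 0.99 and 1.57 in the 6 single omissions. With both libraries that stood apart left out it was 0.98 (edgeR adjusted p = 0.0501).

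VEGFC encodes the lymphatic ligand, which is made as a precursor and cleaved outside the cell. Its transcript was at 243, 175 and 285 CPM in TNF + LED replicates 4, 6 and 10, and at 387, 606 and 503 CPM in TNF replicates 2, 8 and 14. The highest TNF + LED library was below the lowest TNF library, and the extremes were TNF + LED replicate 6 and TNF replicate 8, the libraries that stood apart. Group means were 234 ± 55.4 CPM with light and 499 ± 110 CPM without (SD, n = 3 each), with a log2 fold change of -1.09 ± 0.24 (SE, edgeR adjusted p = 0.0357). Omission of TNF + LED replicate 4 (edgeR adjusted p = 0.118), 6 (0.125) or 10 (0.0568), or of TNF replicate 8 (0.0690) or 14 (0.106), ended the call. Values between -1.25 and -0.92 were obtained in single omissions, and -0.75 (edgeR adjusted p = 0.0284) without both libraries that stood apart. Leaving out the extremes lowers the spread within groups, so that p-value is not comparable with the one from all libraries.

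**Figure D2:**
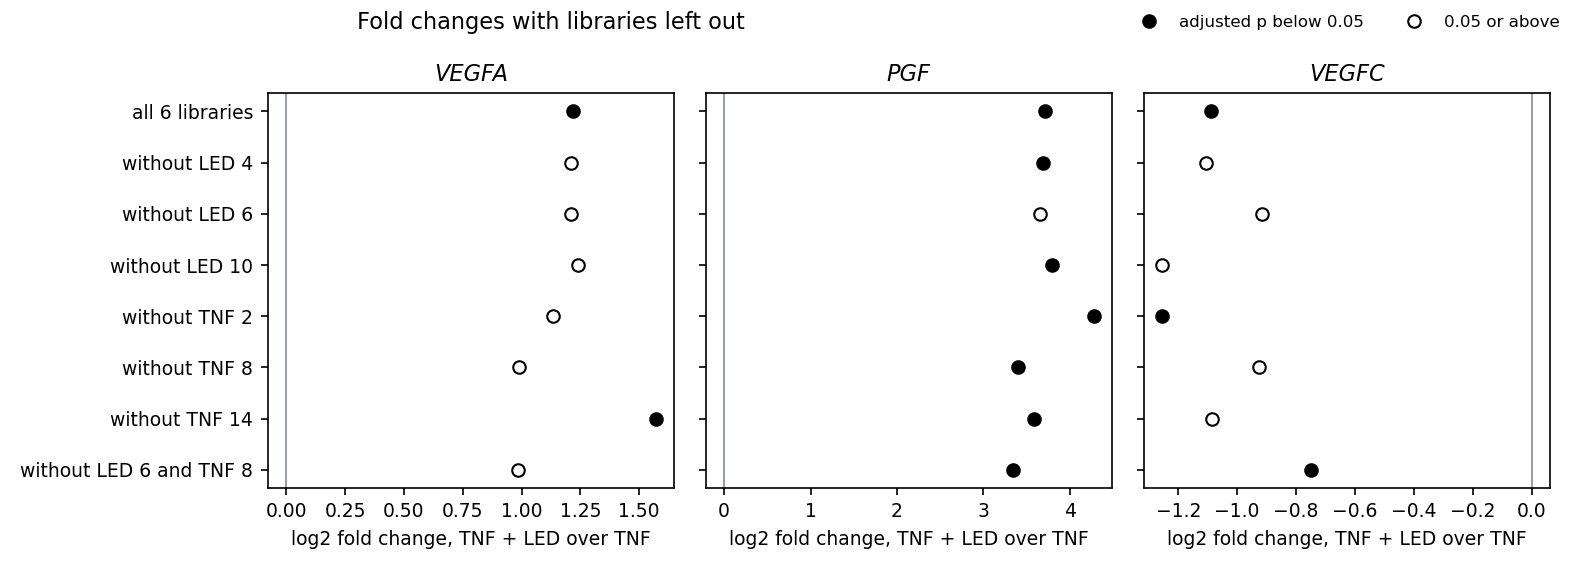
Log2 fold change (TNF + LED over TNF, linear axis) of VEGFA, PGF and VEGFC with all 6 libraries, with each library left out in turn, and without TNF + LED replicate 6 and TNF replicate 8 together. Filled circles have an edgeR adjusted p below 0.05 and open circles do not, and LED 4 stands for TNF + LED replicate 4. Every value keeps its sign, from 0.98 to 1.57 for VEGFA, 3.34 to 4.28 for PGF and -1.25 to -0.75 for VEGFC.

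VEGFB, a ligand of FLT1 with a weak angiogenic effect, had 48.9, 43.5 and 47.6 CPM in TNF + LED replicates 4, 6 and 10 and 53.4, 70.8 and 53.7 CPM in TNF replicates 2, 8 and 14. Every TNF + LED library was below every TNF library, but the gap between the nearest libraries was small beside the spread in the TNF group. Its log2 fold change of -0.35 ± 0.18 (SE) did not pass (95% interval -0.75 to 0.06, edgeR adjusted p = 0.290).

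The ligands PGF and VEGFC, the members with the largest move in each direction that have an entry among the RefSeq promoters (GRCh38.p14), are shown by the 250 bases before their annotated start, 5′ to 3′ on the coding strand. PGF has 2 annotated starts, and the upstream one is given, at chr14:74955765-74956014 on the minus strand. The VEGFC window lies at chr4:176792923-176793172 on the minus strand. Capitals mark GC boxes (GGGCGG, read on both strands) and the hypoxia element core GCGTG (read on both strands, and appearing as CACGC below).
PGF: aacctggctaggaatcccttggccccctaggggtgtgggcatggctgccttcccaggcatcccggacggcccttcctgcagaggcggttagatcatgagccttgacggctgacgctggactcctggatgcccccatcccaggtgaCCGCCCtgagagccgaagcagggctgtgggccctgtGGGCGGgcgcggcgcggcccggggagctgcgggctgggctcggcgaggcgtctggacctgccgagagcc
VEGFC: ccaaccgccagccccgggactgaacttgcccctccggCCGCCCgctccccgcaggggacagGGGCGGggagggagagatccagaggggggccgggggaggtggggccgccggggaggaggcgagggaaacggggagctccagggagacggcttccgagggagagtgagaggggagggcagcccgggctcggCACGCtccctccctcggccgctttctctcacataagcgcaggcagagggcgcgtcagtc

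Both windows hold 2 GC boxes, 105 and 69 bases before the start in PGF and 213 and 189 in VEGFC. At least 1 GC box is present in 42.6% of 35116 RefSeq promoter windows of the same length. The VEGFC window has 1 GCGTG core, 59 bases before the start, a motif found in 32.2% of windows. The window of the second PGF start, which overlaps the first, has 3 GC boxes and 1 GCGTG core. No match to ACGTG (18.5% of windows), to the heat shock element core GAANNTTC or TTCNNGAA (11.6%), to the metal response element core TGCACNC or TGCGCNC (24.8%), to the AP-1 site TGACTCA or TGAGTCA (4.2%) or to the CEBP-ATF element core TTGCATCA or TTGCACCA (1.19%) was found in these PGF and VEGFC windows on either strand. Entries were found for 6 of the 8 members, all but VEGFA and NRP1. GC made up 70.8% of the bases in the upstream PGF window and 74.0% in the VEGFC window.

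Neither receptor tyrosine kinase gene passed the test. FLT1, the receptor shared by VEGFA, VEGFB and PGF, had 8.54, 10.0 and 8.64 CPM in TNF + LED replicates 4, 6 and 10 and 11.5, 13.1 and 14.0 CPM in TNF replicates 2, 8 and 14. The groups did not overlap, with TNF + LED lower, at a log2 fold change of -0.51 ± 0.18 (SE, 95% interval -0.92 to -0.10, edgeR adjusted p = 0.135, unadjusted p = 0.0199). KDR, the main signalling receptor for VEGFA in endothelium, had 8.64, 9.20 and 6.79 CPM in TNF + LED replicates 4, 6 and 10 and 9.04, 3.51 and 6.25 CPM in TNF replicates 2, 8 and 14. These groups overlapped, and the lowest value came from TNF replicate 8. The log2 fold change of KDR was 0.39 ± 0.32 (SE, 95% interval -0.33 to 1.11, edgeR adjusted p = 0.520), and 0.01 without both libraries that stood apart.

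The neuropilins were abundant and varied within groups. NRP1, co-receptor for VEGFA, had 105, 93.3 and 169 CPM in TNF + LED replicates 4, 6 and 10 and 109, 170 and 171 CPM in TNF replicates 2, 8 and 14. TNF + LED replicate 10 matched the higher TNF libraries, and TNF replicate 2 lay near the lower TNF + LED libraries. Its log2 fold change was -0.29 ± 0.27 (SE, 95% interval -0.89 to 0.31, edgeR adjusted p = 0.569). NRP2, which binds VEGFC, had 93.0, 71.1 and 144 CPM in TNF + LED replicates 4, 6 and 10 and 163, 134 and 168 CPM in TNF replicates 2, 8 and 14. The groups overlapped through TNF + LED replicate 10 and TNF replicate 8, and the log2 fold change of NRP2 was -0.60 ± 0.25 (SE, 95% interval -1.17 to -0.02, edgeR adjusted p = 0.201, unadjusted p = 0.0426).

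**Figure D3:**
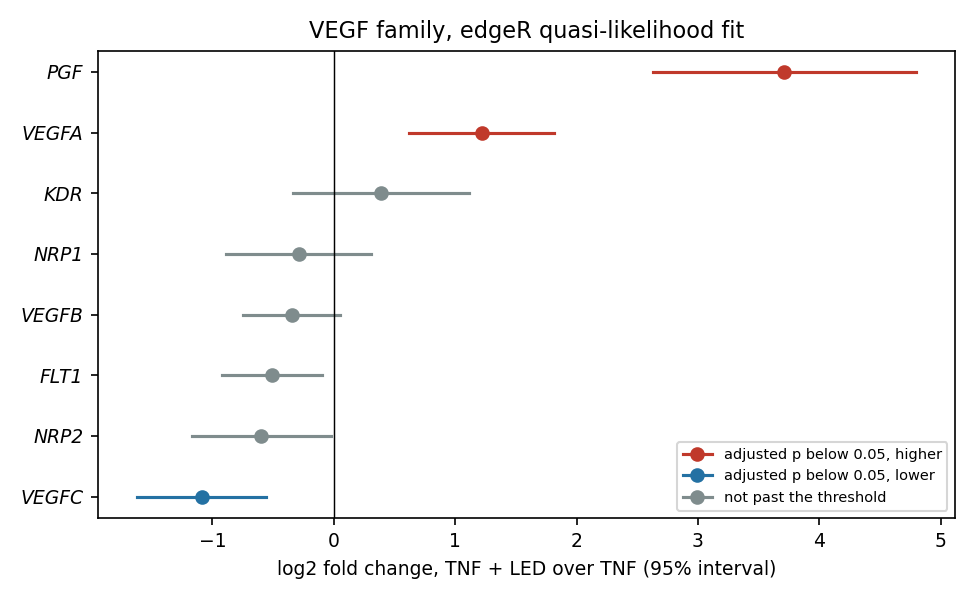
Log2 fold change (TNF + LED over TNF) of each VEGF family member with its 95% interval from the edgeR fit over 6 libraries. Red marks members called higher, blue a member called lower and grey those with an adjusted p of 0.05 or above. PGF (3.71) and VEGFA (1.22) lie to the right of 0 and VEGFC (-1.09) to the left.

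The 2 remaining family genes were barely detected. VEGFD, the other lymphatic ligand, had 4 units in TNF + LED replicate 6 and in TNF replicate 2 and 0 in the other libraries. FLT4, the receptor for VEGFC and VEGFD in lymphatic endothelium, had 12, 5 and 0 units in TNF + LED replicates 4, 6 and 10 and 12, 9 and 16 units in TNF replicates 2, 8 and 14. All these values but 1 were at or under the 12-unit limit, so no fold is given. Transcript for VEGFC was thus plentiful in cells with almost none for FLT4.

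Per kilobase of exon (GENCODE 29), VEGFC was the most abundant member in both groups, at 114 ± 26.9 CPM per kb with light and 242 ± 53.1 CPM per kb without (SD, n = 3 each). VEGFB came next in level, at 33.8 ± 2.03 CPM per kb in TNF + LED libraries and 43.0 ± 7.22 CPM per kb in TNF libraries. VEGFA was at 9.74 ± 0.30 CPM per kb with light, where it overlapped NRP2 at 9.99 ± 3.63 CPM per kb, which in turn overlapped NRP1 at 11.3 ± 3.78 CPM per kb. In the TNF group VEGFA, at 4.19 ± 1.67 CPM per kb, was below both neuropilins (13.8 ± 3.29 for NRP1 and 15.1 ± 1.81 for NRP2), without overlap. PGF overlapped KDR in level with light, at 1.04 ± 0.12 against 1.36 ± 0.21 CPM per kb, and FLT1 was lowest there at 0.72 ± 0.06 CPM per kb. Without light PGF was lowest, at 0.079 ± 0.046 CPM per kb, below KDR (1.04 ± 0.46) and FLT1 (1.03 ± 0.10), which overlapped.

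Shares within a library do not depend on how libraries are scaled to each other. Of the summed ligand counts, VEGFA took 11.3%, 14.4% and 9.58% in TNF + LED replicates 4, 6 and 10, and 3.15%, 1.51% and 3.92% in TNF replicates 2, 8 and 14. VEGFC took 73.3%, 67.8% and 77.0% in the TNF + LED libraries and 85.1%, 88.2% and 86.8% in the TNF libraries. Every TNF + LED library was thus above every TNF library for the VEGFA share and below every one for the VEGFC share. VEGFB, although lower in CPM, also took a higher share with light. It took 14.7%, 16.9% and 12.9% in TNF + LED replicates 4, 6 and 10 and 11.7%, 10.3% and 9.27% in TNF replicates 2, 8 and 14. VEGFC makes up most of the sum, so a lower VEGFC count raises every other share. The VEGFA share is therefore not a separate measure of a VEGFA rise. Per kilobase of exon, which changes the weight of each ligand, the VEGFA share was 6.06%, 7.74% and 5.14% in TNF + LED replicates 4, 6 and 10 and 1.65%, 0.792% and 2.09% in TNF replicates 2, 8 and 14. That share differed by 4.81 percentage points between the group means, against 8.90 on counts, and the groups remained separate. The log2 ratio of VEGFA to VEGFC counts was -2.65 ± 0.39 with light and -5.03 ± 0.74 without (SD, n = 3 each), a difference of 2.38. PGF relative to VEGFB, another FLT1 ligand, had a log2 ratio of -4.39 ± 0.22 with light and -8.61 ± 1.03 without, a difference of 4.22, or 3.40 with 12 units added to each gene. Both differences had a two-sided exact permutation p of 0.1, the smallest that 3 against 3 allows. The log2 ratio of NRP1 to NRP2 was 0.27 ± 0.11 with light and -0.08 ± 0.47 without, with overlapping groups (exact permutation p = 0.3, two-sided). With 7 such measures computed (4 shares and 3 ratios), Benjamini-Hochberg adjustment gave an exact permutation p of 0.117 for the 6 that did not overlap and 0.3 for NRP1 to NRP2. The family was chosen with the opposite moves of VEGFA, PGF and VEGFC known, and the ligand measures use the same counts. Their separation and p-values are thus descriptions and add no support to the calls.

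**Figure D4:**
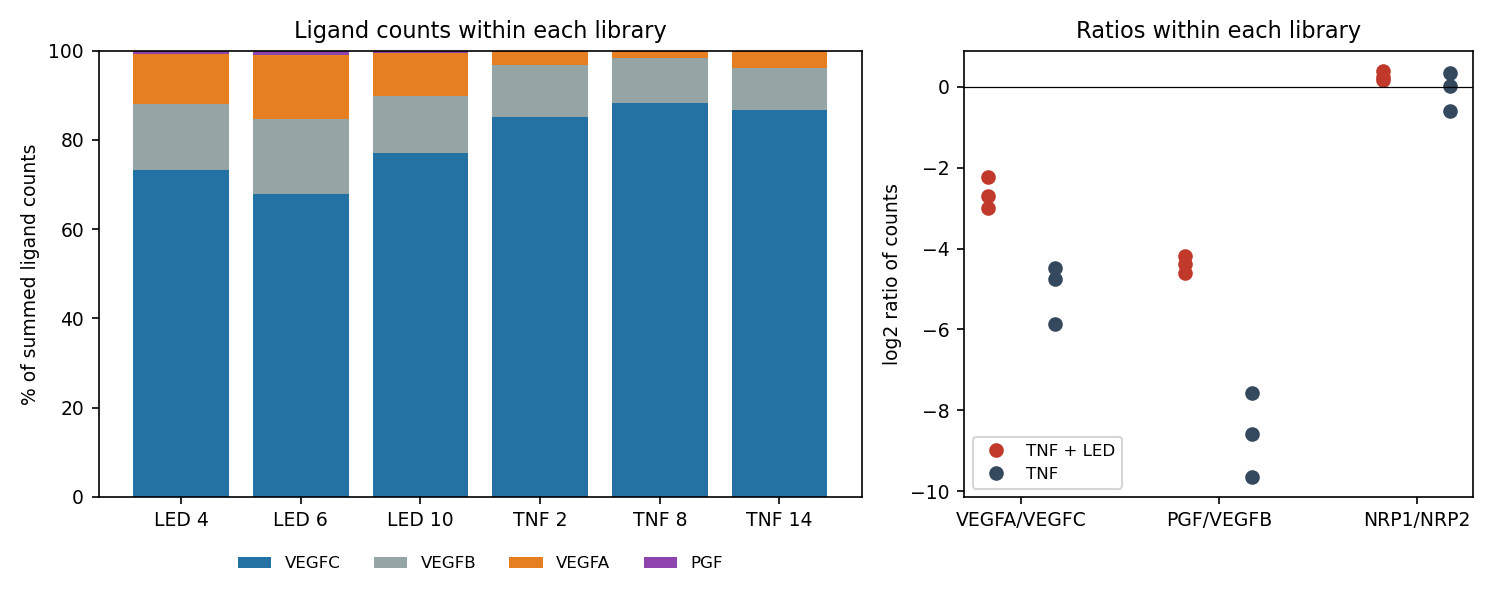
Left, share of each ligand gene in the summed ligand counts of each library (stacked bars, %), where LED 4 stands for TNF + LED replicate 4. Right, log2 ratios of counts within each library, TNF + LED in red left of TNF in dark blue. VEGFC holds 67.8% to 77.0% of ligand counts in TNF + LED libraries and 85.1% to 88.2% in TNF libraries, and the VEGFA to VEGFC ratio does not overlap between the groups.

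Among 16 proteases and matrix proteins that cleave or hold VEGF ligands, 15 were tested, of which 3 fell, none rose and 12 were not called by edgeR. DESeq2 called 4, against 1753 of all 13794 genes tested, and limma-voom called 3 of the list. EdgeR called 2.44% of all genes tested as higher and 2.73% as lower. At an edgeR unadjusted p below 0.05, reached by at least 2924 of all 13794 genes, 5 of the list were lower and 1 higher. The higher one was the protease gene MMP3, at 446 CPM with light and 309 CPM without, with separate groups (edgeR adjusted p = 0.139). The median log2 fold change was -0.31, against 0.01 over all genes tested. Those that fell were PLAU and PLAT, which generate the plasmin able to cleave VEGFA and VEGFC, and CTGF, a matrix protein that binds VEGFA. PLAU averaged 645 ± 75.9 CPM with light and 2496 ± 94.7 CPM without (SD, n = 3 each), a log2 fold change of -1.95 ± 0.18 (SE, edgeR adjusted p = 0.00159). CTGF averaged 230 ± 41.0 CPM with light and 718 ± 60.8 CPM without (log2 fold change -1.64 ± 0.19, edgeR adjusted p = 0.00461). PLAT averaged 41.2 ± 5.94 CPM with light and 90.3 ± 8.74 CPM without (log2 fold change -1.13 ± 0.18, edgeR adjusted p = 0.0146). PLAU and CTGF stayed called in each single omission, while PLAT lost its call without TNF + LED replicate 4 or 6 or TNF replicate 14 (edgeR adjusted p up to 0.0675). For the machinery that matures VEGFC, CCBE1, the cofactor of the cleaving enzyme, averaged 78.7 CPM with light and 134 CPM without (edgeR adjusted p = 0.0797). The cleaving enzyme ADAMTS3 averaged 4.04 CPM with light and 6.03 CPM without (edgeR adjusted p = 0.240), with overlapping groups. None of the convertases able to cleave the VEGFC precursor was called, and their differences had both signs. FURIN averaged 162 CPM with light and 182 CPM without (edgeR adjusted p = 0.663), PCSK7 37.7 CPM with light and 46.7 CPM without (0.363), and PCSK5 8.73 CPM with light and 8.23 CPM without (0.844). CTSD, a lysosomal protease that can also cleave VEGFC, averaged 664 CPM with light and 569 CPM without (edgeR adjusted p = 0.546). MMP3, CCBE1, ADAMTS3, the 3 convertases and CTSD were chosen after their values were seen.

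Among 13 semaphorin and plexin partners of the neuropilins, 11 were tested and none was called by edgeR or limma-voom, while 1 was lower at an unadjusted p below 0.05 and 1 was called by DESeq2 and 1 by edgeR without both libraries that stood apart. PLXNA1, a signalling partner of neuropilins for semaphorins, averaged 192 CPM with light and 293 CPM without (edgeR adjusted p = 0.102). PLXND1, a semaphorin receptor of vessels, averaged 85.8 CPM with light and 110 CPM without (edgeR adjusted p = 0.232). The median log2 fold change of this list was -0.25. Over all genes, at least 2924 of 13794 had an edgeR unadjusted p below 0.05, and DESeq2 called 1753. Without both libraries that stood apart, edgeR called 1669 of 13860.

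Of 30 VEGF receptor signalling genes 27 were tested, 1 rose, none fell and 26 were not called by edgeR, with a median log2 fold change of -0.03. Of all genes tested edgeR called 5.17% with all libraries. DESeq2 called 3 (against 1753 of all 13794 genes tested) and limma-voom 1. Without both libraries that stood apart, edgeR called 4 (against 1669 of 13860). At an edgeR unadjusted p below 0.05, reached by at least 2924 of all 13794 genes, 1 was higher and 4 were lower. Of these, PLCG1, a phospholipase that KDR activates, averaged 80.7 CPM with light and 120 CPM without (edgeR adjusted p = 0.0887), and the kinase AKT1 148 CPM with light and 223 CPM without (0.0954), both chosen after their values were seen. HSPB1, the small heat shock protein phosphorylated downstream of KDR, rose to 2036 CPM with light against 479 CPM without (log2 fold change 2.09 ± 0.21, edgeR adjusted p = 0.00278), and stayed called in each single omission. HSPB1 is also a heat shock gene, and the heat shock share of counts was higher in every TNF + LED library. Whether its rise had a part in VEGF signalling was not tested.

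Of 26 factors known to act on VEGF ligand transcription or mRNA stability 25 were tested, and none was called by edgeR or limma-voom, while 3 of them were higher and none lower at an unadjusted p below 0.05, and DESeq2 called 1. Without TNF replicate 2 edgeR called 1, and without both libraries that stood apart it called 5. Over all genes, at least 2924 of 13794 had an edgeR unadjusted p below 0.05, and DESeq2 called 1753. EdgeR called 737 of 14031 without TNF replicate 2 and 1669 of 13860 without both libraries that stood apart. PPARGC1A, a coactivator that can induce VEGFA, averaged 2.50 CPM with light and 0.570 CPM without (edgeR adjusted p = 0.0902). SP1, a factor that binds GC boxes, averaged 101 CPM with light and 77.5 CPM without (edgeR adjusted p = 0.184). Transcript of HIF1A, the oxygen-regulated subunit that activates VEGFA in hypoxia and is controlled mainly at the protein level, averaged 922 CPM with light and 728 CPM without (edgeR adjusted p = 0.533). MTF1, a metal-responsive factor reported to act on PGF, averaged 37.1 CPM with light and 27.3 CPM without (edgeR adjusted p = 0.278). For both HIF1A and MTF1 the groups overlapped, and the lowest value came from TNF replicate 8 (415 CPM for HIF1A and 21.9 CPM for MTF1). HIF1A and MTF1 were chosen after their values were seen.

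Of 30 hypoxia-responsive genes 29 were tested, 1 rose, 1 fell and 27 were not called by edgeR, with a median log2 fold change of 0.09. Over all genes tested, edgeR called 5.17% with all libraries. DESeq2 called 4 of the list, against 1753 of all 13794 genes. Without both libraries that stood apart, edgeR called 4, against 1669 of 13860. BHLHE40, a transcriptional repressor, rose to 85.0 CPM with light against 38.1 CPM without (log2 fold change 1.16 ± 0.23, edgeR adjusted p = 0.0280). STC2, a secreted glycoprotein, fell to 163 CPM with light against 293 CPM without (log2 fold change -0.85 ± 0.19, edgeR adjusted p = 0.0403). BHLHE40 lost its call without TNF + LED replicate 4 or 6 or TNF replicate 8 or 14 (edgeR adjusted p up to 0.116), and without both libraries that stood apart (0.0766). STC2 kept its call in 1 of 6 single omissions, that of TNF replicate 8 (edgeR adjusted p up to 0.129 in the others), and lost it where libraries were scaled by their totals only. The median member deviated from its mean over the 6 libraries by -0.02, 0.00 and 0.07 on the log2 scale in TNF + LED replicates 4, 6 and 10 and by -0.07, -0.03 and 0.16 in TNF replicates 2, 8 and 14.

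Of 12 inhibitors of angiogenesis 10 were tested, 2 fell, none rose and 8 were not called by edgeR, with a median log2 fold change of -0.55. EdgeR called 2.44% of all genes tested as higher and 2.73% as lower. At an edgeR unadjusted p below 0.05, 5 inhibitors were lower and none higher, and DESeq2 called 2. THBS1, a secreted antagonist of vessel growth, averaged 337 CPM with light and 1063 CPM without (log2 fold change -1.66 ± 0.26, edgeR adjusted p = 0.0126). ADAMTS1, a protease that also binds VEGFA, averaged 226 CPM with light and 516 CPM without (log2 fold change -1.19 ± 0.16, edgeR adjusted p = 0.00771). Without TNF + LED replicate 6 THBS1 lost its call (edgeR adjusted p = 0.0732), as did ADAMTS1 without TNF + LED replicate 4 (0.0542). None of the 4 tested genes among 5 angiopoietins and TIE receptors was called by edgeR or limma-voom, while 2 were lower at an unadjusted p below 0.05 and DESeq2 called 2 and edgeR without both libraries that stood apart 1. Over all genes, at least 2924 of 13794 had an edgeR unadjusted p below 0.05, and DESeq2 called 1753. Without both libraries that stood apart, edgeR called 1669 of 13860. TEK, the angiopoietin receptor, averaged 63.1 CPM with light and 97.4 CPM without (edgeR adjusted p = 0.106), and ANGPT2, one of its ligands, 1.43 CPM with light and 2.83 CPM without (edgeR adjusted p = 0.101).

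Endothelial cells express FLT1 and KDR, so endothelial markers were read beside them. Of 11 such markers, CDH5 and EMCN were at 0 in every library, ERG stayed under 12 units, PECAM1 was seen in TNF replicate 2 alone (0.117 CPM), and the other 7 were tested. Their summed level was 64.7 to 82.9 CPM in TNF + LED libraries and 88.8 to 120 CPM in TNF libraries, most of it from TEK. PLVAP, a diaphragm protein of fenestrated vessels, was the 1 endothelial marker called by edgeR with all libraries, with 24, 208 and 32 units in TNF + LED replicates 4, 6 and 10 and 0 in every TNF library, at least 7.21-fold higher against the floor of 3 fragments per library (edgeR adjusted p = 0.0320). Replicate 6 carried that value, and without it, an alternative chosen after seeing the data, PLVAP was at least 2.30-fold higher. The call was lost without TNF + LED replicate 6 or TNF replicate 8 or 14 (edgeR adjusted p up to 0.125), with counts divided by 4, and where at least 1 CPM was required in 3 libraries. DESeq2 called 2 endothelial markers, and edgeR called 2 without TNF replicate 2 and 2 without both libraries that stood apart. Over all genes, the counts under those settings were 1753 of 13794, 737 of 14031 and 1669 of 13860. With all libraries edgeR called 713 of 13794. VWF, the clotting factor carrier of endothelium, averaged 1.64 ± 0.26 CPM with light and 0.638 ± 0.40 CPM without (SD, n = 3 each), with separate groups (edgeR adjusted p = 0.130). Of 8 macrophage and leukocyte markers 4 were tested and none was called by edgeR, DESeq2 or limma-voom, nor at an unadjusted p below 0.05. Their summed level was 115 to 155 CPM in TNF + LED libraries and 93.5 to 139 CPM in TNF libraries, nearly all from the lysosomal gene CD68, chosen after its values were seen, and AIF1 and TYROBP were at 0 in every library. CSF1R averaged 1.46 CPM with light and 0.893 CPM without (edgeR adjusted p = 0.378), and CD163 0.222 CPM with light and 0.0512 CPM without (0.306).

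Among 6 pericyte markers 1 fell, none rose and 5 were not called by edgeR, while DESeq2 called 5 and limma-voom 1. EdgeR called 2 with no filter, the filter of 1 CPM, RLE or upper quartile scaling or counts divided by 4, 4 without both libraries that stood apart, and 0 to 3 with 1 library omitted. Over all genes, DESeq2 called 1753 of 13794, and edgeR called 1669 of 13860 without both libraries that stood apart. EdgeR called 713 of 13794 with all libraries, 809 of 15952 with no filter and 699 of 11936 with the filter of 1 CPM. It called 713 of 13794 with RLE scaling, 749 of 13794 with upper quartile scaling and 811 of 12694 with counts divided by 4. With 1 library omitted it called 80 to 737. NOTCH3, a receptor of vessel mural cells, fell to 96.1 CPM with light against 163 CPM without (edgeR adjusted p = 0.0475), and lost its call when TNF + LED replicate 4, 6 or 10 or TNF replicate 14 was omitted (up to 0.174). CSPG4 averaged 137 CPM with light and 245 CPM without (edgeR adjusted p = 0.0686), and MCAM 154 CPM with light and 242 CPM without (0.0817). The opposite direction was seen for RGS5, at 10.4 CPM with light and 4.63 CPM without (edgeR adjusted p = 0.0729), and for ABCC9, at 6.16 CPM with light and 2.83 CPM without (0.0504), both with separate groups. Summed pericyte markers lay between 390 and 436 CPM in TNF + LED libraries and between 535 and 835 CPM in TNF libraries. The choice of VWF, CSPG4, MCAM, RGS5 and ABCC9 was made after seeing their values. The part of the endothelial, leukocyte and pericyte markers in the results was not tested.

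Genes with the profile closest to that of each called member were sought by the root mean square difference between log2 CPM profiles over the 6 libraries, each centred on its own mean. Among 11897 genes with a mean of at least 1 CPM, those nearest to VEGFA were L3MBTL3, RIMBP3 and ZNF600, with differences of 0.20, 0.22 and 0.22. Nearest to PGF were ITGB8, HSPH1 and NAALAD2 (0.29, 0.35 and 0.35), and nearest to VEGFC were TMEM19, PYCR3 and NYNRIN (0.0617, 0.0650 and 0.0700). HSPH1 is a heat shock gene, and it averaged 3581 CPM with light and 197 CPM without. ITGB8, an integrin subunit, had 3.19, 3.47 and 3.75 CPM in TNF + LED replicates 4, 6 and 10 and 0.610, 0.128 and 0.323 CPM in TNF replicates 2, 8 and 14. The profile of TMEM19 was 10.9, 8.10 and 13.1 CPM in TNF + LED replicates 4, 6 and 10 and 18.1, 28.4 and 20.8 CPM in TNF replicates 2, 8 and 14. As for VEGFC, its extremes were TNF + LED replicate 6 and TNF replicate 8.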

How the data were processed

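RNA from 6 MH7A samples was depleted of ribosomal RNA and sequenced after random priming, per the labels' protocols. The authors deposited estimated counts per gene as whole numbers, used here with no rounding. Tools listed, with no role, per the submitters' processing notes were StringTie, HISAT2, limma, DESeq2 and bcl2fastq 2.0, beside the mouse build mm10, although the gene symbols are human. The build, annotation and strand setting used for counting are not given in the sources used here. VEGFA, NRP1 and NRP2 share 188, 561 and 147 exon bases with antisense genes in GENCODE 29, and without strand such reads cannot be told apart. Of the values from 1 to 7, 41.8% equalled 4, which gives about 21500063 to 27018572 fragments per library. Floors cover counting error only.

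Groups came from the labels. TNF + LED was tested against TNF with edgeR 4.0.16 in R 4.3.3 (filterByExpr, TMM scaling, robust quasi-likelihood F test, two-sided, Benjamini-Hochberg adjustment, threshold 0.05), fitted on the whole table. The code was also run on counts simulated from the fit itself, which checks the code and not the calls given here. The SE is the log2 fold change divided by the square root of F. Chi-square per degree of freedom between libraries of a group was 25.8 to 126, so none was a copy of another. The alternatives were other filters and scalings, DESeq2 1.42.0, limma-voom (limma 3.58.1), counts divided by 4 and omitted libraries. Members, lists and rules were chosen with earlier results of these data known. From each list the text names the 3 called genes with the lowest p, or the 2 lowest where none was called, all family members, and the 3 nearest profiles of VEGFA, PGF and VEGFC. Genes named outside this rule are marked as chosen after their values were seen, other than marker genes at or near 0. Lengths are exon unions of the GENCODE 29 basic set.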

Additional observations from a re-analysis of the deposited data

How the results depend on the processing

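All 8 members kept the sign of their log2 fold change in all 16 alternatives. VEGFA, PGF and VEGFC stayed called under every other filter, scaling and tool and with counts divided by 4, and lost calls only where libraries were left out. The number of members called was 0 to 2 with 1 library omitted (0 to 2 higher and 0 to 1 lower), and without TNF + LED replicate 6 and TNF replicate 8 it was 2, with 1 higher. Over all genes 713 were called, against 80 to 737 with 1 library omitted (59 to 314 higher, 21 to 423 lower), 1753 with DESeq2 (874 higher, 879 lower) and 1669 without both libraries that stood apart (763 higher, 906 lower). In the related and marker lists 10 genes were called, against 4 to 13 with 1 library omitted (1 to 6 higher, 3 to 7 lower), 23 with DESeq2 (8 higher, 15 lower) and 27 without both libraries (9 higher, 18 lower). The cause was not tested. The difference in the log2 ratio of VEGFA to VEGFC was 1.97 to 2.67 with 1 library omitted. No paired analysis was possible because the groups share no sample number. Depth limits PGF in the TNF group, at about 13 fragments in all, and VEGFD and FLT4 in every library.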
